A study of Mus musculus with 20 samples.

Results

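The genes of MHC class I antigen presentation were followed in tumors of the LLC1 line, a mouse Lewis lung carcinoma. Members were chosen by mouse gene symbol: the heavy chains H2-K1 and H2-D1, their light chain B2m, the peptide transporter subunits Tap1 and Tap2, the loading chaperone Tapbp (tapasin), the inducible proteasome subunits Psmb8, Psmb9 and Psmb10, and the transactivator Nlrc5. All 10 were matched to an Ensembl gene among the 35226 genes of the table, and all 10 were among the 16665 genes that passed the filter on low counts. Tumors had been raised under the skin of the flank of young adult male C57BL6/J mice, the strain from which the line came, so both the carcinoma cells and the host cells of a tumor can contribute each transcript. Mice were randomized to 4 groups, and 5 tumors of each were sequenced, each as 1 library: vehicle, the adenosine receptor antagonist KW6002 (istradefylline), the platinum drug cisplatin, which damages DNA, and both drugs (cotreatment). The study asked whether KW6002, given to protect the kidney, altered what cisplatin does to the tumor. No group carried a genetic change of the host, and all tumors came from the same cell line.

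MHC class I molecules display short peptides from inside the cell to CD8 T cells. The proteasome cuts proteins into peptides, the transporter made of Tap1 and Tap2 moves them into the endoplasmic reticulum, and tapasin holds an empty heavy chain with B2m beside the transporter until a peptide is bound. Interferon gamma raises most of these genes, in part through the factor Irf1. It also brings in Psmb8, Psmb9 and Psmb10, which take the places of the constitutive catalytic subunits Psmb5, Psmb6 and Psmb7 and so form the immunoproteasome. Nlrc5 is drawn to the promoters of class I genes by proteins bound to short boxes called X and Y. LLC cells are known for a low surface level of class I that interferon gamma can raise.

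Of the 10 members, 7 lie on chromosome 17 (GRCm38), in the mouse MHC. H2-K1 (ENSMUSG00000061232) is at chr17:33996017-34000347 on the minus strand, Tapbp (ENSMUSG00000024308) at chr17:33915899-33929292 on the plus strand and H2-D1 (ENSMUSG00000073411) at chr17:35262730-35267499 on the plus strand. Psmb9 (ENSMUSG00000096727, chr17:34181987-34187764, minus strand), Tap1 (ENSMUSG00000037321, chr17:34187553-34197225, plus strand), Psmb8 (ENSMUSG00000024338, chr17:34197721-34201454, plus strand) and Tap2 (ENSMUSG00000024339, chr17:34203527-34216321, plus strand) follow each other within 34.3 kb. Psmb9 and Tap1 start back to back and share 212 bases on opposite strands. Libraries kept the strand, but the strand option of the counting is not given in the sources used here, so reads from those shared bases may have been assigned by strand or dropped as ambiguous. The same holds for B2m, Tap2, Tapbp, Psmb8, Psmb10 and Nlrc5, which overlap other genes on the opposite strand. Tapbp also overlaps Zbtb22, and Nlrc5 a microRNA gene, on its own strand, where the strand option makes no difference. B2m (ENSMUSG00000060802) is at chr2:122147686-122153083 on the plus strand, Nlrc5 (ENSMUSG00000074151) at chr8:94434356-94527272 on the plus strand, and Psmb10 (ENSMUSG00000031897) at chr8:105935735-105938444 on the minus strand. All 10 are annotated as protein coding, and a count covers the exons of a gene, untranslated parts included.

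The promoters are shown because these genes are known to be switched on through short boxes that Nlrc5 and the interferon factors use. RefSeq windows (GRCm38.p6) of 300 bases, from 250 before to 50 after a transcript start, were at hand for 8 members, the exceptions being Tap2 and Nlrc5. Capitals mark matches, on either strand, to GAANNGAAA (the core of an interferon-stimulated response element), TTCNNNGAA (the gamma-activated site), GGGNNTTCC (a core bound by NF-kappaB), TGACG (part of the X box) and CCAAT (the Y box, which reads ATTGG on the other strand). No matches overlapped, except that TTCNNNGAA reads the same on both strands. The windows shown are H2-K1 (chr17:34000298-34000597, minus strand, the first of its 2 windows), H2-D1 (chr17:35262844-35263143, plus strand), B2m (chr2:122147437-122147736, plus strand), Psmb9 (chr17:34187281-34187580, minus strand, of which 275 bases are also in the Tap1 window) and Psmb8 (chr17:34197945-34198244, plus strand).
H2-K1: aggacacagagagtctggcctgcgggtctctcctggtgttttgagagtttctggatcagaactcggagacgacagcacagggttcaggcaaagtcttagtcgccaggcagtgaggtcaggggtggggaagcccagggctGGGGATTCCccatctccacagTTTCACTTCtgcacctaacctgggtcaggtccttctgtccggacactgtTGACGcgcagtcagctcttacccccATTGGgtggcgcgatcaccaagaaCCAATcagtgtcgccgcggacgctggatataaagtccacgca
H2-D1: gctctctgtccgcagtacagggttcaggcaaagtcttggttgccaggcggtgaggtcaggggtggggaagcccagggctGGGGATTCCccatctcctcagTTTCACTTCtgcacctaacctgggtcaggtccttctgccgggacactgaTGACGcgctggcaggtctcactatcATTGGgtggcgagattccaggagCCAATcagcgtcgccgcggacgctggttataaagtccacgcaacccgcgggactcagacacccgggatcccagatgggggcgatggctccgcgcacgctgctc
B2m: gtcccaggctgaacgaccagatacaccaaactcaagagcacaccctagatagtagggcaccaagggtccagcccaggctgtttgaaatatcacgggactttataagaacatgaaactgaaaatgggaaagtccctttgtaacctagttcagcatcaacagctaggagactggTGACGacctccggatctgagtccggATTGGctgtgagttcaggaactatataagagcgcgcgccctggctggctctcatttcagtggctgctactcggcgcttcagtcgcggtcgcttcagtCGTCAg
Psmb9: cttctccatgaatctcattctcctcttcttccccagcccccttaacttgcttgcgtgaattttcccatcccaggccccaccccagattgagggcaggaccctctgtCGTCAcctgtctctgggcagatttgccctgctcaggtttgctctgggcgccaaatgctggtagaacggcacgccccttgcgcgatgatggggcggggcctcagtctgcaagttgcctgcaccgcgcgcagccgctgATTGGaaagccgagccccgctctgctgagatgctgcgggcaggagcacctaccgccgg
Psmb8: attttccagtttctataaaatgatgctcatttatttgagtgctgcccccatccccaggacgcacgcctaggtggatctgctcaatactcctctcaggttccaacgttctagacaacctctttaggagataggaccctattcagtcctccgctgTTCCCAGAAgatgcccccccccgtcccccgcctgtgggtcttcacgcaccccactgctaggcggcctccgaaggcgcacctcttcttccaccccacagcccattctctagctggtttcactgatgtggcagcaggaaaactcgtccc

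In H2-K1, H2-D1 and B2m, TGACG was followed after exactly 20 bases by ATTGG. This arrangement was noticed in these sequences and then searched for in all 32851 windows of RefSeq transcripts, where 31 windows (0.0944%) held it on either strand, the member windows that prompted the search included. The class I gene H2-M3 was among them, but most of the 31 belonged to genes outside class I, such as Calu, Nasp and Per1, while the windows of Tap1, Tapbp, Psmb8, Psmb9 and Psmb10 were not. The H2-K1 and H2-D1 windows also held GAANNGAAA, found in 7.52% of all windows, and GGGNNTTCC, found in 5.82%. At their best ungapped alignment, 73.3% of 240 bases of these 2 windows were identical. Psmb8 held TTCNNNGAA, which 8.3% of all windows hold. TGACG alone occurred in 20.8% of windows and CCAAT in 37.4%. Of the members not printed, Tapbp held CCAAT at 2 places and Psmb10 none of the 5 motifs. A match describes the letters in the window and does not show that a factor binds there. A window without a match may still hold a site in another spelling.

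Libraries held between 28.4 and 41 M counts. Counts were scaled to CPM, a count relative to the library's total corrected by TMM factors, and groups are given as mean ± SD of 5 tumors. The labels do not say that each tumor came from a separate mouse, so the P values measure the spread between these tumors. A gene was called changed when the adjusted P value of edgeR's quasi-likelihood test, taken over all genes tested, was under 0.05 and the log2 fold change was at least 0.32 in size. One library stood apart: KW6002 replicate 1 had 377 counts of Ms4a1, a gene of B cells, against at most 5 in any other tumor. Its summed T and NK cell markers were at 31.6 CPM, against 5.58 to 15.2 CPM in the other KW6002 tumors. The members called, their medians and the main tests that use the KW6002 group are therefore also given without it. The library codes in the labels fall into a lower and a higher run of numbers, here called the earlier and the later run. The labels do not say that these are sequencing runs or dates. Of the tumors given vehicle, 1 was in the earlier run, as were 2 given KW6002, 2 given cisplatin and 3 given both. Of the carcinoma markers, Krt8 and Krt18 were expressed in all groups (mean of at least 123 CPM), whereas Epcam had 0 to 5 counts per tumor.

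Levels can be compared between genes only per length, so mean CPM was divided by the kilobases of merged exons. Merged exons join all annotated transcripts of a gene and can be longer than the transcript in use, which sets a gene too low. In vehicle tumors, B2m was highest at 894 ± 162 CPM per kb, followed by H2-D1 at 175 ± 25 CPM per kb and H2-K1 at 54.3 ± 11.8 CPM per kb (SD, n = 5). Tapbp stood at 36.9 ± 2.14 CPM per kb and Psmb10 at 18 ± 1.87 CPM per kb. The ranges of H2-K1 and Tapbp overlapped (37.6 to 69.5 and 34.4 to 39.9 CPM per kb). Tap2 (10.4 ± 1.97), Psmb8 (5.66 ± 1.06), Tap1 (3.84 ± 0.826), Nlrc5 (3.21 ± 0.854) and Psmb9 (2.18 ± 0.682 CPM per kb) came last. Of these, every Tap2 value lay above every Psmb8 value, and from Psmb8 on each gene's range overlapped with that of the next. Per kb of merged exons the constitutive subunits were above the inducible ones that replace them, with 25.4 ± 2.05 CPM per kb for Psmb5, 84.8 ± 3.78 for Psmb6 and 50.5 ± 2.83 for Psmb7. For Psmb8 and Psmb5 most of that gap rests on the merged lengths, 3.381 and 0.899 kb. By counts, vehicle tumors had 0.845 of Psmb8 per count of Psmb5. Psmb9 and Psmb10 had 0.05 and 0.178 per count of Psmb6 and Psmb7.

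The classical heavy chains and B2m did not pass edgeR's test in any comparison. H2-K1, a classical heavy chain that presents peptide to CD8 T cells, was at 168, 204, 170, 110 and 145 CPM in vehicle tumors and at 253, 155, 157, 195 and 163 CPM in KW6002 tumors. In cisplatin tumors it was at 137, 110, 135, 213 and 187 CPM, and in cotreated tumors at 139, 127, 156, 137 and 133 CPM. All 4 groups overlapped, KW6002 replicate 1 was the highest of the 20 tumors, and the cotreated tumors were the closest to each other (CV of 7.74%, against 21.7% to 27.1% in the other groups). The log2 fold change of H2-K1 was -0.03 after cisplatin (95% interval -0.41 to 0.35) and -0.20 after cotreatment (-0.58 to 0.17) against vehicle. The latter was -0.089 without vehicle replicate 2 and -0.31 without vehicle replicate 4. In cotreated against KW6002 tumors it was -0.41 ± 0.18 (SE, adjusted P = 0.0816, edgeR). DESeq2 and the fit to these 2 groups alone called that difference (adjusted P = 0.0472 and 0.0278), while without KW6002 replicate 1 it was -0.27 (adjusted P = 0.249, edgeR).

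H2-D1, the other classical heavy chain, had nearly the same mean in each group. Vehicle tumors had 451 ± 64.6 CPM and KW6002 tumors 469 ± 33.2 CPM, while cisplatin gave 455 ± 57.7 CPM and cotreatment 441 ± 15.4 CPM (SD, n = 5). All groups overlapped, and the 95% interval of its log2 fold change was -0.17 to 0.19 after cisplatin and -0.22 to 0.15 after cotreatment, both within the fold limit of 0.32. B2m, the light chain that every class I molecule needs, was at 748, 1012, 721, 664 and 699 CPM in vehicle tumors and at 668, 630, 625, 730 and 696 CPM in cotreated tumors. Of the vehicle tumors 3 lay within the cotreated range, and vehicle replicate 2 far above it. B2m was at 786 ± 83.7 CPM in KW6002 and 727 ± 85.5 CPM in cisplatin tumors. Its log2 fold change after cotreatment was -0.20 (95% interval -0.41 to 0.01, adjusted P = 0.138, edgeR), and -0.069 (adjusted P = 0.578) without vehicle replicate 2.

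**Figure D1:**
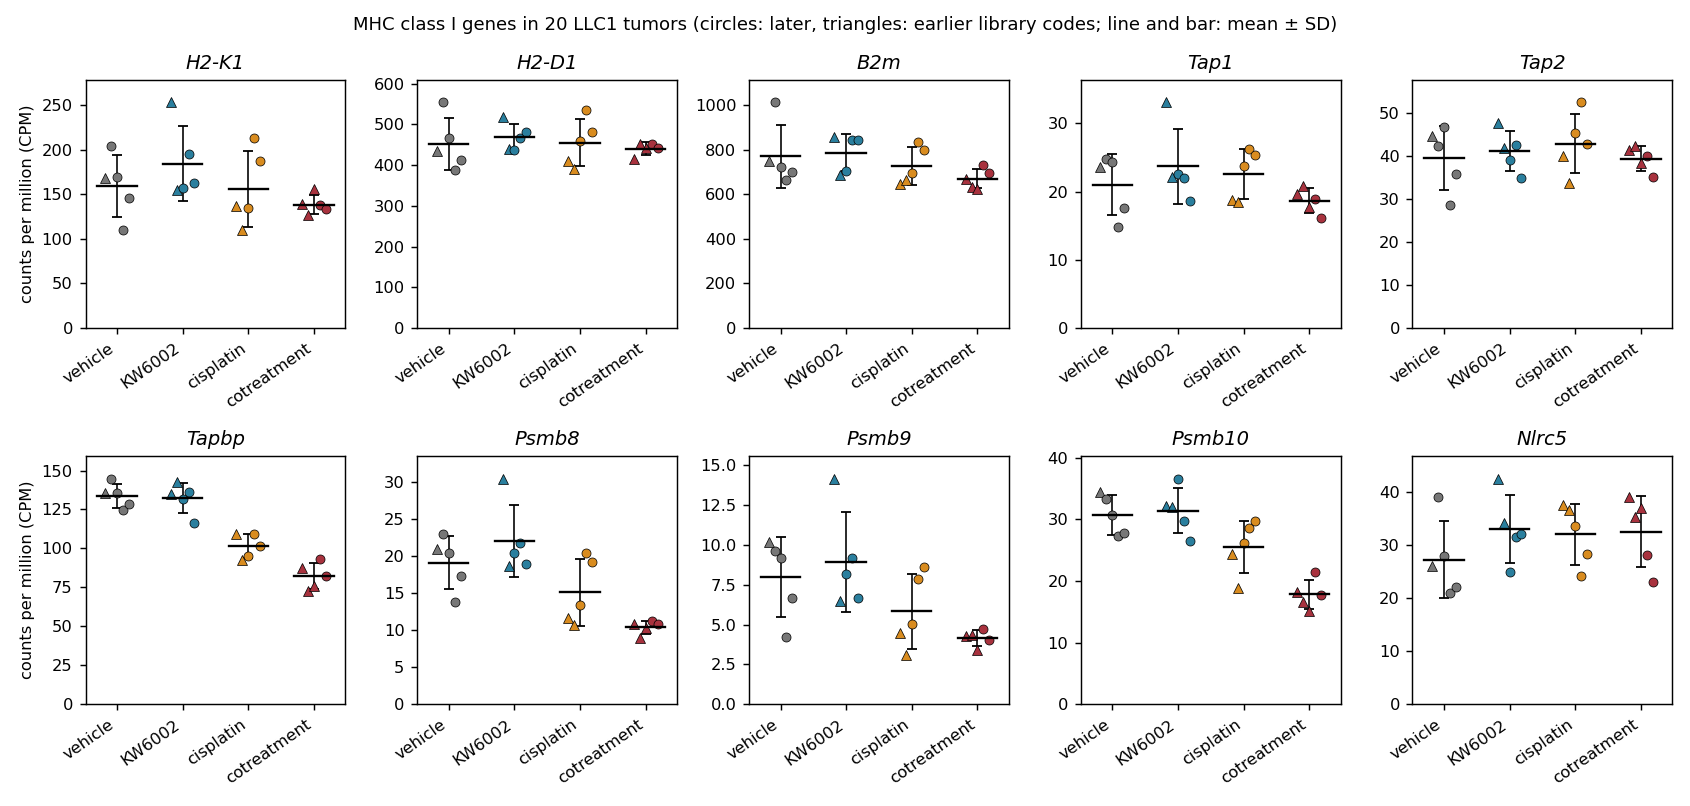
CPM of the 10 members in each of the 20 tumors, 1 panel per gene, with groups on the x axis and CPM from 0 on the y axis. Circles are tumors of the later and triangles of the earlier library codes, and lines and bars give the mean ± SD of 5 tumors. For Tapbp, Psmb8 and Psmb10 all cotreated tumors lie below all vehicle tumors, while for the other members these groups overlap.

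The transporter subunits were likewise called in no comparison of the fit to all tumors. Tap1 had 21 ± 4.52 CPM in vehicle, 23.7 ± 5.48 in KW6002, 22.5 ± 3.68 in cisplatin and 18.7 ± 1.82 in cotreated tumors. Its partner Tap2 had 39.5 ± 7.43, 41.1 ± 4.64, 42.8 ± 6.87 and 39.3 ± 2.83 CPM in the same order. For both genes the tumors of all groups overlapped, and cisplatin tumors had the highest or second highest mean. The log2 fold change of Tap1 was 0.10 after cisplatin (95% interval -0.22 to 0.42) and -0.17 after cotreatment (-0.49 to 0.16), and that of Tap2 was 0.12 (-0.14 to 0.37) and -0.01 (-0.26 to 0.25). In cotreated against KW6002 tumors Tap1 differed by -0.34 (adjusted P = 0.0927, edgeR). That difference was -0.19 (adjusted P = 0.325) without KW6002 replicate 1, and -0.51 (adjusted P = 0.0349) and called in the earlier code run alone, an alternative added after seeing the data in which that tumor is 1 of the 2 given KW6002.

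Tapasin was the member with the clearest change. Tapbp was at 136, 145, 136, 125 and 128 CPM in vehicle tumors and at 135, 143, 132, 136 and 116 CPM in KW6002 tumors. It was at 109, 92.4, 95, 109 and 101 CPM in cisplatin tumors and at 87.3, 72.8, 76.1, 93.2 and 82.3 CPM in cotreated tumors. Every cisplatin and every cotreated tumor lay below every vehicle and KW6002 tumor, and 4 of the 5 cotreated tumors lay below all cisplatin tumors, replicate 4 being the exception. Tapbp fell by 0.40 ± 0.07 on the log2 scale after cisplatin, a fold of 0.758 (adjusted P = 0.00071, edgeR). After cotreatment it fell by 0.70 ± 0.07, a fold of 0.615 (adjusted P = 5.26e-07). The difference between cotreated and cisplatin tumors, -0.30 ± 0.07, had an adjusted P of 0.0158 but was just under the fold limit of 0.32.

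The 3 inducible proteasome subunits fell after cotreatment. Psmb8, which takes the place of Psmb5, was at 21, 23, 20.5, 13.8 and 17.4 CPM in vehicle tumors and at 30.5, 18.7, 20.4, 21.8 and 19 CPM in KW6002 tumors. In cisplatin tumors it was at 11.7, 10.8, 13.4, 20.5 and 19.3 CPM, and in cotreated tumors at 10.8, 8.98, 10.3, 11.2 and 10.8 CPM. All cotreated tumors lay below all vehicle and KW6002 tumors, whereas the cisplatin tumors were spread, 2 within or just above the cotreated range, replicate 3 between the cotreated and the vehicle range, and 2 within the vehicle range. Psmb8 fell by 0.88 ± 0.18 on the log2 scale after cotreatment (fold of 0.544, adjusted P = 0.000706, edgeR), and its difference after cisplatin was -0.34 ± 0.18 (adjusted P = 0.195).

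Psmb9, which takes the place of Psmb6, was the lowest member. It was at 10.2, 9.63, 9.14, 4.21 and 6.65 CPM in vehicle tumors, at 14.1, 6.45, 8.17, 9.19 and 6.65 CPM in KW6002 tumors, at 4.5, 3.07, 5.05, 7.88 and 8.61 CPM in cisplatin tumors and at 4.26, 4.35, 3.38, 4.71 and 4.02 CPM in cotreated tumors. These values rest on 99 to 455 counts per tumor. Vehicle replicate 4 lay within the cotreated range, so the groups overlapped. Psmb9 fell by 0.94 ± 0.28 after cotreatment (fold of 0.522, adjusted P = 0.0124, edgeR), while tumors of the later code run alone gave -0.74 (adjusted P = 0.131). After cisplatin the difference was -0.45 ± 0.27 (adjusted P = 0.273).

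Psmb10, which takes the place of Psmb7, was at 34.4, 33.3, 30.7, 27.3 and 27.8 CPM in vehicle tumors and at 18.3, 16.7, 15.1, 21.4 and 17.7 CPM in cotreated tumors. Its KW6002 tumors had 32.1, 32, 36.6, 29.8 and 26.5 CPM, and its cisplatin tumors 24.3, 18.8, 26.2, 28.6 and 29.7 CPM. The cotreated group overlapped with neither vehicle nor KW6002, and 1 cisplatin tumor (replicate 2) lay within it. Psmb10 fell by 0.78 ± 0.12 after cotreatment (fold of 0.581, adjusted P = 3.07e-05, edgeR). It was also the member called between cotreated and cisplatin tumors, by -0.52 ± 0.12 (adjusted P = 0.0121, edgeR). That call was lost in the fit to these 2 groups alone, at a similar -0.52 (adjusted P = 0.0595). Each code run alone also lost it, with -0.52 in the later run (adjusted P = 0.225) and -0.37 in the earlier run (adjusted P = 0.141).

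Nlrc5, the transactivator of class I genes, was called in no comparison. It was at 26.1, 39.1, 28, 20.9 and 22 CPM in vehicle tumors and at 39, 35.3, 36.9, 28.2 and 23 CPM in cotreated tumors. The groups overlapped over nearly their whole range. KW6002 tumors had 33 ± 6.34 CPM and cisplatin tumors 32 ± 5.71 CPM. Against vehicle, the log2 fold change was 0.28 ± 0.18 after KW6002, 0.23 ± 0.18 after cisplatin and 0.26 ± 0.18 after cotreatment, with adjusted P values of 1, 0.397 and 0.291 (edgeR). Without KW6002 replicate 1 the log2 fold change after KW6002 was 0.17, and without vehicle replicate 2 those after cisplatin and cotreatment were 0.41 and 0.43, neither of them called. In the cotreated group the 3 tumors of the earlier code run had the 3 highest values, and in the later run alone the log2 fold change against vehicle was -0.085.

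Counted by comparison, KW6002 alone called 0 of the 10 members, where it called 0% of all genes and 339 genes (2.03%) had an unadjusted P under 0.05. None of the members had an unadjusted P under 0.05, and DESeq2 called 0 members. The median log2 fold change of the members was 0.11 against -0.00 for all genes tested, and 9 of the 10 were above 0. Without KW6002 replicate 1 the median was 0.02, 7 of the 10 were above 0, and 0 members and 0 genes were called. Cisplatin called 1 member, Tapbp, where it called 10.6% of all genes and 4.57% as lower. The median was -0.06 against 0.00 for all genes. Cotreatment called 4 members, all lower, where it called 23.5% of all genes and 10.4% as lower. The median was -0.20 against -0.02 for all genes. For 3 of the 4 (Tapbp, Psmb8 and Psmb10) the groups did not overlap, which held with a lower level for 12.4% of all genes. The comparisons with vehicle share the vehicle tumors, and the 3 comparisons of cotreatment share the cotreated tumors, so they are not independent of each other.

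Cotreated and KW6002 tumors differ by cisplatin given on top of KW6002. The same 4 members were called lower there, where 23.3% of all genes were called and 10.7% as lower, and for all 4 the groups did not overlap (12.7% of all genes, lower). The log2 fold changes were -0.68 ± 0.07 for Tapbp (adjusted P = 7.47e-07), -1.09 ± 0.18 for Psmb8 (adjusted P = 0.000108), -1.10 ± 0.28 for Psmb9 (adjusted P = 0.00426) and -0.82 ± 0.12 for Psmb10 (adjusted P = 2e-05, edgeR). Without KW6002 replicate 1, the tumor with B cell transcripts, they were -0.68, -0.94, -0.88 and -0.81, and all 4 were still called. The median over the members was -0.38 against -0.01 for all genes, and -0.24 without that tumor.

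Cotreated and cisplatin tumors differ by KW6002 given on top of cisplatin. Psmb10 was the 1 member called, where 4% of all genes were called and 1.71% as lower. Psmb8 differed by -0.54 ± 0.18 (adjusted P = 0.0734, edgeR), Psmb9 by -0.49 ± 0.28 (adjusted P = 0.299, and -0.30 without cisplatin replicate 5) and Tap1 by -0.27 ± 0.15 (adjusted P = 0.303). DESeq2 called Psmb8 (-0.53, adjusted P = 0.0321) as well as Psmb10. The count of members called in this comparison changed with the tumors and settings used. With code run as a term Psmb10 was still the 1 member called. Without cisplatin replicate 2 the members called were Tapbp, Psmb8 and Psmb10. Without cisplatin replicate 1, cisplatin replicate 3, cotreatment replicate 1 or cotreatment replicate 4 there were 2. The fit to these 2 groups alone called none, where 217 of all genes were called, with Psmb10 at the same -0.52. The later run alone also gave Psmb10 -0.52 (adjusted P = 0.225).

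Within the earlier code run, Psmb8 was at 10.8 to 11.7 CPM in 2 cisplatin tumors and 8.98 to 10.8 CPM in 3 cotreated tumors. Within the later run it was at 13.4 to 20.5 CPM in 3 cisplatin tumors and 10.8 to 11.2 CPM in 2 cotreated tumors. For Psmb8, the cisplatin tumors of the later run lay farther from the cotreated ones than those of the earlier run did. Cotreated and cisplatin tumors of the earlier run differed by 0.08 for Psmb9, the opposite direction to the -0.49 over both runs. For Psmb10 they differed by -0.37 (adjusted P = 0.141, edgeR). No member was called in either run alone, where 322 of all genes were called in the earlier run and 1 in the later run. Against vehicle, cisplatin alone gave H2-K1 a log2 fold change of 0.19 in the later run, where it was -0.03 over both. The part of the run in these values was not tested.

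The interaction asks whether KW6002 changed a gene by a different amount with cisplatin than without it. No member was called, where 11 of all genes (0.066%) were, and 3 members had an unadjusted P under 0.05, as did 12.2% of all genes. All 10 members had a value under 0, with a median of -0.33 against -0.00 for all genes, but members that move together are not separate signs. Markers of immune cells also lay under 0 in the interaction: 10 of 10 of T and NK cells (median -1.61, and -0.99 without KW6002 replicate 1), 4 of 4 of leukocytes (-0.42), 4 of 4 of neutrophils (-0.93) and 7 of 8 of macrophages (-0.30). Of these edgeR called 0, and 4, 3, 1 and 1 had an unadjusted P under 0.05, while DESeq2 called 1, a leukocyte marker. Their part in the members' values was not tested. Psmb8 had -0.75 ± 0.25 (unadjusted P = 0.00717, adjusted P = 0.214), Psmb10 -0.55 ± 0.16 (unadjusted P = 0.00275, adjusted P = 0.162) and Tapbp -0.28 ± 0.10 (unadjusted P = 0.0096, adjusted P = 0.238, all edgeR). Without KW6002 replicate 1 these were -0.60, -0.54 and -0.28 (adjusted P = 0.362, 0.25 and 0.354), all 10 members were still under 0 with a median of -0.26, and 0 members and 0 genes were called. DESeq2 called 0 members and 258 genes.

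**Figure D2:**
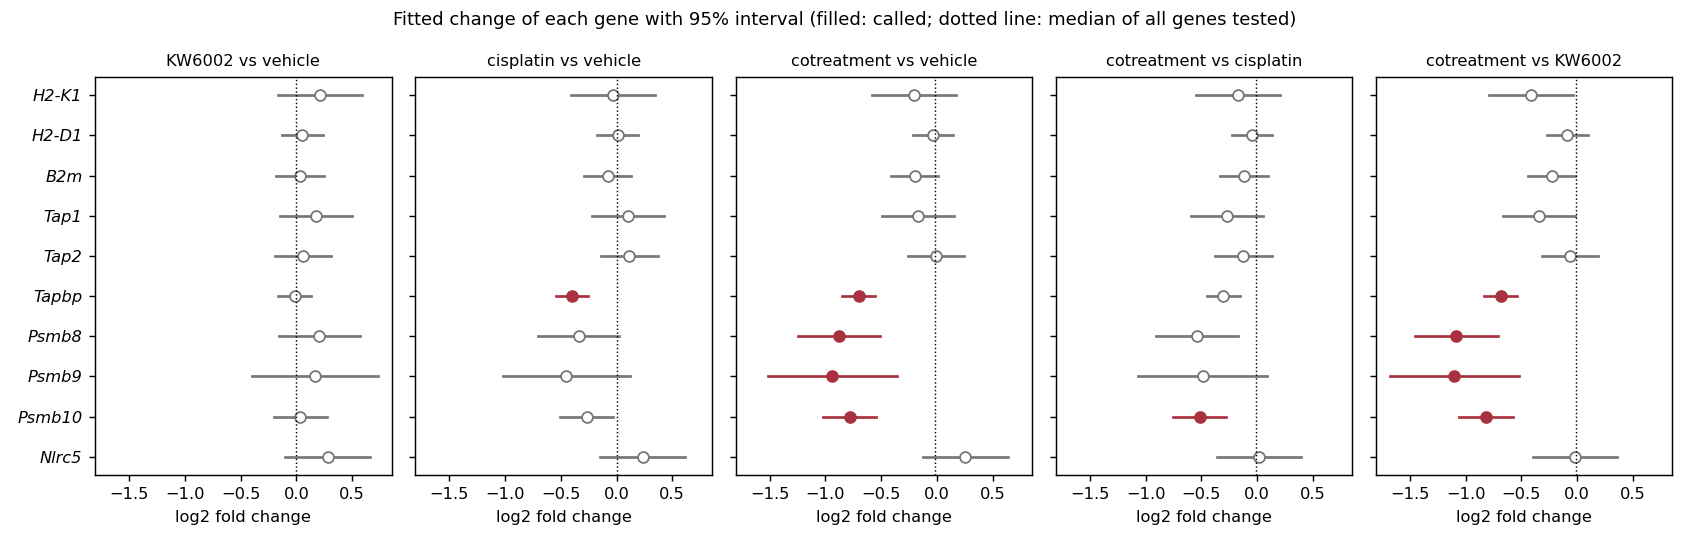
Fitted log2 fold change (x axis) of each member (y axis) in the 5 comparisons between groups, 1 panel per comparison, with 95% intervals from edgeR. Filled red points were called and the dotted line is the median of all genes tested. Tapbp, Psmb8, Psmb9 and Psmb10 lie between -0.70 and -0.94 in the panel of cotreatment against vehicle, and no member is called for KW6002 against vehicle.

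Because each inducible subunit replaces a constitutive one, their ratio was compared as log2 CPM of one minus the other within each tumor, with an exact permutation test of 252 arrangements, two-sided, whose smallest P is 0.00794. With 3 ratios and 5 comparisons, P values were adjusted over 15 tests. Per count of Psmb5, vehicle tumors had 0.845 ± 0.191 counts of Psmb8 and KW6002 tumors 1.03 ± 0.22, against 0.627 ± 0.144 after cisplatin and 0.494 ± 0.0567 after cotreatment (SD, n = 5). The log2 ratio fell by 0.75 in cotreated against vehicle tumors and by 1.05 against KW6002 tumors (adjusted P = 0.0238 for both, exact permutation test). Psmb10 stood at 0.178 ± 0.0238, 0.182 ± 0.0189, 0.157 ± 0.0312 and 0.115 ± 0.0083 counts per count of Psmb7 in the same order. Its log2 ratio fell by 0.63 against vehicle and by 0.66 against KW6002 (adjusted P = 0.0238 for both). Neither ratio of cotreated tumors overlapped with these groups.

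Psmb9 stood at 0.05 ± 0.0152 counts per count of Psmb6 in vehicle, 0.0564 ± 0.0196 in KW6002, 0.0333 ± 0.011 in cisplatin and 0.0279 ± 0.00224 in cotreated tumors. The log2 ratio fell by 0.95 against KW6002 (adjusted P = 0.0238, exact permutation test), and differed by -0.77 from vehicle (adjusted P = 0.0794). Cotreated and cisplatin tumors differed in log2 ratio by -0.32 for Psmb8 over Psmb5, -0.19 for Psmb9 over Psmb6 and -0.42 for Psmb10 over Psmb7, with adjusted P values of 0.143, 0.485 and 0.085. Neither cisplatin nor KW6002 alone gave a ratio an adjusted P under 0.05 against vehicle. Without KW6002 replicate 1 the 3 ratios fell by 0.93, 0.77 and 0.65 in cotreated against KW6002 tumors (adjusted P = 0.0238 for each). Reads of 50 bases place Psmb5 less securely than the others: 45.9% of the 50-base words of its transcripts occur in transcripts of no other gene, against 88.1% for Psmb8, 95.8% for Psmb9, 99% for Psmb6, 90.7% for Psmb7 and 100% for Psmb10.

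**Figure D3:**
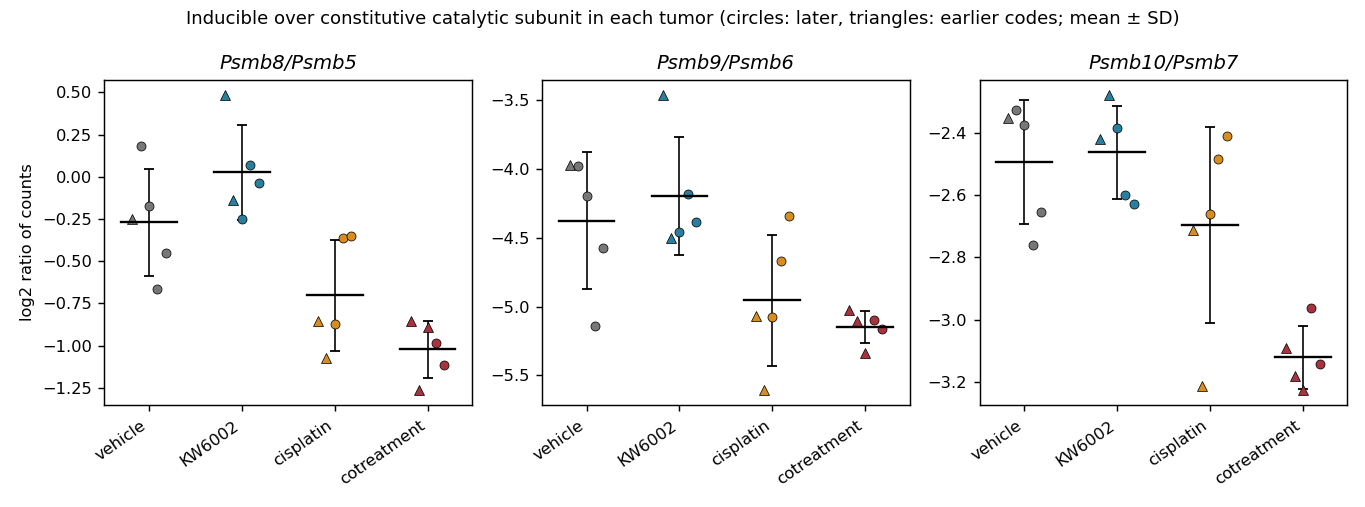
Log2 ratio of counts of the inducible over the constitutive catalytic subunit (y axis) in each tumor by group (x axis), 1 panel per pair. Circles and triangles are the later and earlier library codes, and lines and bars the mean ± SD of 5 tumors. Cotreated tumors lie below all vehicle and KW6002 tumors for Psmb8/Psmb5 and Psmb10/Psmb7, and cisplatin tumors overlap with the vehicle tumors in all 3 panels.

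Ratios between neighboring genes of the cluster on chromosome 17 are given as a description. Psmb9 and Tap1 start back to back from 1 shared stretch of promoter, and Psmb9 had 0.372 ± 0.0539 counts per count of Tap1 in vehicle and 0.371 ± 0.0546 in KW6002, against 0.251 ± 0.0689 in cisplatin and 0.222 ± 0.026 in cotreated tumors. The highest cotreated tumor (0.25) lay below the lowest vehicle tumor (0.284). Psmb8, 495 bases downstream of Tap1, had 0.486 ± 0.0374 counts per count of Tap2 in vehicle, 0.534 ± 0.0704 in KW6002, 0.35 ± 0.0694 in cisplatin and 0.266 ± 0.0348 in cotreated tumors. The pairs Psmb9 and Tap1, and Psmb8 and Tap2, were set side by side after their values had been seen and were not tested.

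Among tumors of the same group, the members moved together in part. Deviations of log2 CPM from the group mean over the 20 tumors had a Pearson r of 0.95 between H2-K1 and Psmb8, 0.93 between Psmb8 and Psmb9, and 0.90 between Tap1 and Tap2. Nlrc5 stood aside, with a median r of 0.18 with the other members and -0.21 with Psmb10. Tapbp had a median r of 0.45. KW6002 replicate 1 had the highest H2-K1 and Psmb8 of all tumors, and over the 19 other tumors the 3 pairs had an r of 0.93, 0.92 and 0.92, while the median r of Nlrc5 was 0.077. The tumors share depth and scaling within a library, so these values describe the set only. By the mean standardized deviation of the members, vehicle replicate 2 (1.25), KW6002 replicate 1 (1.13) and cisplatin replicate 4 (1.02) were the highest of their groups, and vehicle replicate 4 (-1.42) and cisplatin replicate 2 (-1.21) the lowest.

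Of 12730 genes ranked over the same 20 tumors, the 8 whose deviations were most like those of the members were Epsti1 (r of 0.913), Mgll (0.897), H2-Q4 (0.896), Sod3 (0.893), Ifi47 (0.892), Sh2d3c (0.889), Oas3 (0.886) and Ccr7 (0.883). All 8 were highest among KW6002 tumors in replicate 1, the tumor with B cell transcripts. Without it their r was 0.871 to 0.92, and 3 of the 8 (Epsti1, H2-Q4 and Ccr7) were still among the first 8. After cotreatment 6 of these 8 genes were called lower, all but H2-Q4 and Sod3, where 10.4% of all genes were. Epsti1, Ifi47 and Oas3 are known as genes raised by interferons, and Ccr7 guides lymphocytes and dendritic cells to lymph nodes. Ifi47 fell by 1.17 ± 0.29 on the log2 scale after cotreatment (adjusted P = 0.00423, edgeR), from 10.4 ± 3.13 to 4.62 ± 1.09 CPM. Epsti1 fell by 0.49 ± 0.17 (adjusted P = 0.0313) and Oas3 by 0.99 ± 0.32 (adjusted P = 0.0214). Mgll, an enzyme that breaks down monoacylglycerols, fell by 0.80 ± 0.22 after cisplatin (adjusted P = 0.0158) and by 0.76 ± 0.22 after cotreatment (adjusted P = 0.00919). Sod3 differed by -0.33 ± 0.37 after cotreatment (adjusted P = 0.523), and H2-Q4 by -0.40 ± 0.30 (adjusted P = 0.311).

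The rest of the pathway was read from fixed lists, in the order of its steps. Among 11 partners of peptide loading and trimming, 1 fell after cisplatin and 3 after cotreatment, with a median of -0.10 and -0.23, where 4.57% and 10.4% of all genes were called lower. Erap1, the aminopeptidase that trims peptides in the endoplasmic reticulum to the length class I binds, was at 87.6, 100, 81.8, 111 and 90.7 CPM in vehicle tumors and at 50.6, 41.9, 49.9, 63.2 and 53 CPM in cotreated tumors. The groups did not overlap, and cisplatin tumors (52 to 79.2 CPM) also lay below all vehicle tumors. Erap1 fell by 0.58 ± 0.11 after cisplatin (adjusted P = 0.00189) and by 0.87 ± 0.12 after cotreatment (adjusted P = 1.16e-05, edgeR). After cotreatment, Thop1, a peptidase of the cytosol, fell by 0.41 ± 0.08 (adjusted P = 0.000522) and Calr (calreticulin), a chaperone of the loading complex, by 0.33 ± 0.08 (adjusted P = 0.00211).

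Of 19 other class I heavy chains and class I-like genes, 14 were tested. None was called after cisplatin (1 had an unadjusted P under 0.05, and DESeq2 called 0), where 10.6% of all genes were. After cotreatment 3 of the 14 were called, a share near the 23.5% of all genes: H2-T24 fell while Mr1 and Cd1d1 rose. H2-T24 had 2.37 CPM in vehicle and 1.06 CPM in cotreated tumors on average, a difference of -1.15 ± 0.33 (adjusted P = 0.0108, edgeR). Mr1, which presents vitamin metabolites to MAIT cells, rose by 0.37 ± 0.09 (adjusted P = 0.00227), and Cd1d1, which presents lipids to NKT cells, by 0.55 ± 0.15 (adjusted P = 0.00715). Near-identical copies limit this family. The share of 50-base words found in transcripts of no other gene was 90.4% for H2-K1 and 87.2% for H2-D1. It was 63.6% for H2-Q4 and went down to 46.5% within this list. For H2-T24 it was 96.8%, for Cd1d1 80.9% and for Mr1 100%. Tapbp, a member outside this family, had a share of 76.8%.

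The constitutive proteasome core did not pass the test. Of its 14 subunits, edgeR and DESeq2 called 0 after KW6002, cisplatin or cotreatment, and 0, 0 and 3 had an unadjusted P under 0.05. Of all genes, 0%, 10.6% and 23.5% were called in these comparisons. The list medians were -0.02, 0.00 and -0.07. Psmb7 had an adjusted P of 0.0402 after cotreatment with a difference of -0.16, below the fold limit. Among 9 activators and assembly factors, Psme2, a subunit of the interferon-inducible PA28 activator, fell by 0.43 ± 0.07 after cotreatment (adjusted P = 5.57e-05, edgeR), and 0 were called after cisplatin by edgeR or DESeq2 (1 with an unadjusted P under 0.05). That 1 of 9 is near the 10.4% of all genes called lower after cotreatment. Below the limits for a call, 8 of the 9 lay under 0, with a median of -0.23 against -0.02 for all genes. In edgeR's test 7 of the 9 had an unadjusted P under 0.05 after cotreatment.

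Among 15 transcription factors of class I promoters, 2 fell after cisplatin (Stat2 and Creb1) and 6 after cotreatment, among them Irf1, Irf9 and Stat2, and none rose. Of all genes, 4.57% and 10.4% were called lower. Irf1, which interferon gamma induces and which acts on the promoters of class I and of Psmb9, was at 95.5, 97.2, 91.9, 101 and 92.3 CPM in vehicle tumors and at 68.3, 55.1, 58.5, 66.9 and 62.9 CPM in cotreated tumors. Every cotreated tumor lay below every tumor of the other groups, and cisplatin tumors (71.3 to 91.8 CPM) lay between. Irf1 fell by 0.62 ± 0.07 against vehicle (adjusted P = 1.32e-06) and by 0.35 ± 0.07 against cisplatin (adjusted P = 0.00519). After cotreatment, Irf9 fell by 0.48 ± 0.09 (adjusted P = 0.00032) and Stat2 by 0.39 ± 0.10 (adjusted P = 0.00334, all edgeR), and both are parts of the complex that answers type I interferon. Creb1 lies outside the rule for named genes and is named to complete the count after cisplatin. The deviations of Irf1 from its group means had an r of 0.249 with Psmb8, 0.145 with Psmb9, 0.275 with Psmb10 and 0.411 with Tapbp. The part of Irf1 in the levels of the members was not tested.

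Of 10 interferon ligands, receptors and signaling genes, 8 were tested and 3 fell after cotreatment, where 10.4% of all genes were called lower. These were Ifngr2, a chain of the interferon gamma receptor (-0.36 ± 0.07, adjusted P = 0.000363), Jak2, a kinase bound to it (-0.37 ± 0.07, adjusted P = 0.000518), and Socs1, its feedback inhibitor (-0.41 ± 0.14, adjusted P = 0.0252, edgeR). After cisplatin edgeR and DESeq2 called 0 of the 8, where edgeR called 10.6% of all genes and 4.57% as lower. Of the 8, 3 had an unadjusted P under 0.05. The ligand itself was at the limit of detection. Ifng had 0 to 9 counts per tumor and Ifnb1 0 to 3 counts, too few for a test. Ifng had 0 counts in all 5 cotreated tumors, 0 to 7 in cisplatin, 0 to 9 in KW6002 and 1 to 5 in vehicle tumors.

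**Figure D4:**
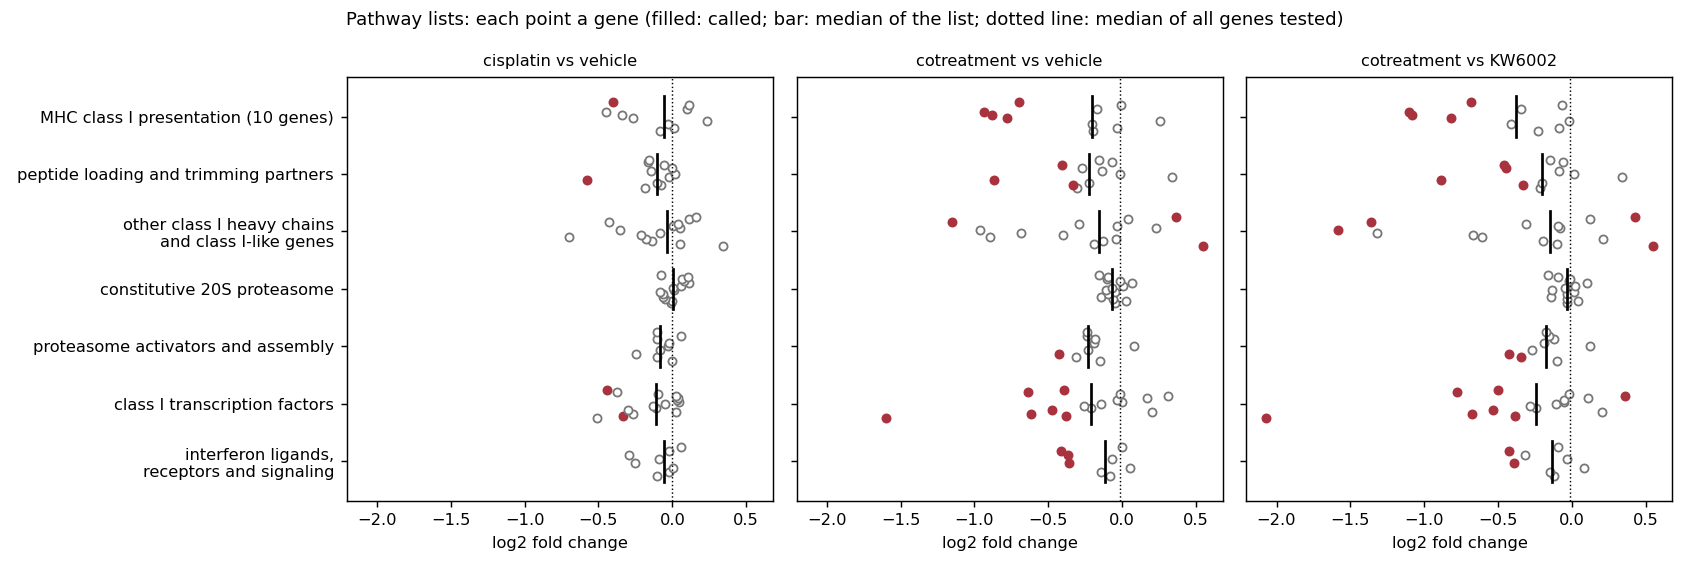
Log2 fold change (x axis) of each tested gene of the members and of 6 pathway lists (y axis), 1 panel per comparison. Filled red points were called, black bars are list medians, and the dotted line is the median of all genes tested. The constitutive 20S proteasome has 0 of 14 genes called in all 3 panels, while 6 of 15 class I transcription factors are called lower in cotreatment against vehicle.

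A bulk library does not tell fewer cells of a type from less RNA per cell, and transcripts of host cells moved with the groups. Ptprc, the pan-leukocyte gene CD45, was at 77.6 ± 6.22 CPM in vehicle, 96.4 ± 15.6 in KW6002 (91.9 ± 13.8 without replicate 1), 61.1 ± 2.96 in cisplatin and 52.8 ± 7.51 in cotreated tumors. It fell by 0.35 ± 0.10 after cisplatin (adjusted P = 0.0231) and by 0.55 ± 0.10 after cotreatment (adjusted P = 0.000272, edgeR). Marker counts are to be read against the share of all genes called after cotreatment, 23.5% in either direction and 10.4% as lower, and after cisplatin, 10.6% and 4.57%. The 4 leukocyte markers did not move as one. After cisplatin Laptm5, a lysosomal membrane protein of leukocytes, rose by 0.56 ± 0.10 (adjusted P = 0.000652). After cotreatment 2 fell, and the sum of the 4 was 292 to 335 CPM in vehicle, 336 to 387 in KW6002, 284 to 390 in cisplatin and 275 to 325 in cotreated tumors. Among the 5 dendritic cell markers, 1 rose after cisplatin and 2 fell after cotreatment, with a sum of 24.4 to 33.9 CPM in vehicle and 21.1 to 28.5 CPM in cotreated tumors. Of 8 macrophage markers 1 rose after cisplatin, and 2 rose and 1 fell after cotreatment, with a sum of 1102 to 1532 CPM in vehicle, 1189 to 2093 in cisplatin and 1198 to 1579 in cotreated tumors.

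T and NK cell markers were low throughout. Their sum over 10 genes was 3.11 to 11 CPM in vehicle, 5.58 to 31.6 in KW6002, 6.68 to 18.4 in cisplatin and 4.54 to 8.89 in cotreated tumors. Cd8a had 0.602 ± 0.315, 2.05 ± 1.98, 0.263 ± 0.201 and 0.196 ± 0.174 CPM in the same order, with 0 counts in 1 cotreated tumor. The KW6002 tumors other than replicate 1 had 1.21 ± 0.705 CPM (n = 4). In cotreated against vehicle tumors edgeR and DESeq2 called 0 of the 10, and 1 had an unadjusted P under 0.05, with 8 of the 10 under 0 and a list median of -0.92. In cotreated against KW6002 tumors 6 of the 10 were called lower by edgeR, where 10.7% of all genes were, with a list median of -1.64, and 3 without KW6002 replicate 1, with a median of -1.06. After cisplatin the list was divided, with 5 of the 10 above 0, a median of -0.22 and 1 called, Prf1 (perforin), which rose by 2.00 ± 0.41 (adjusted P = 0.00249, edgeR). Prf1 was also the 1 gene of this list called between cotreated and cisplatin tumors, where 4% of all genes were called and 1.71% as lower, with a difference of -1.55 (adjusted P = 0.0238). Of 4 tested neutrophil markers 1 fell after cisplatin and 3 after cotreatment, where 10.4% of all genes were called lower, and their sum went from 41.6 to 114 CPM in vehicle to 12.7 to 30 CPM in cotreated tumors. All 5 endothelial markers fell after cisplatin, where 4.57% of all genes were called lower, and after cotreatment, with a sum of 124 to 182 CPM in vehicle, 59.3 to 80 in cisplatin and 61.1 to 94.8 in cotreated tumors. Of 6 fibroblast markers 3 fell after cisplatin and 2 after cotreatment (sum of 2619 to 3197 CPM in vehicle and 2543 to 3354 in cotreated tumors), and of 3 tested carcinoma markers 1, Krt8, rose after both (list sum of 390 to 424 CPM in vehicle and 467 to 547 CPM in cotreated tumors). Within groups, the deviations of Ptprc had an r of 0.22 with Psmb8, 0.05 with Psmb9, 0.01 with Psmb10 and 0.22 with Tapbp over the 20 tumors. Without KW6002 replicate 1 these were 0.035, -0.16, -0.012 and 0.20. Ptprc does not stand for every immune cell. The T and NK sum was 10.8, 11, 10.6, 3.11 and 6.36 CPM in vehicle replicates 1 to 5, the same ranking as Psmb8. In cisplatin replicates 1 to 5 it was 7.04, 6.68, 10.6, 18.4 and 17.7 CPM, again ranked as Psmb8. In KW6002 and cotreated tumors the rankings differed in part. They were compared after seeing the values. The part of host cells in the lower levels of Tapbp, Psmb8, Psmb9 and Psmb10 was not tested.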

How the data were processed

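The 10 genes and all gene lists were chosen with earlier results of these data known. Poly(A) RNA of 20 tumors had been sequenced as stranded single-end reads of 50 bases. The authors' deposited values are raw counts per Ensembl gene, made with bcl2fastq 2.17.1.14, STAR, which kept unique alignments to mm10 (GRCm38), and HTSeq 0.6.1p1, per the labels and the methods of the study. The table holds no normalized values, and all of its count columns were used. Symbols were found for 35142 of 35226 genes.

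Counts were analyzed with edgeR 4.0.16 in R 4.3.3: filterByExpr by group, TMM scaling, and a robust quasi-likelihood fit of 4 group means to all 20 tumors, with Benjamini-Hochberg adjustment over 16665 genes. The limits for a call (0.05, and 0.32 on the log2 scale) are those of the study. Log2 CPM used a prior count of 2. The script was tested on simulated data. The replicates of a group, 40 pairs, had a lowest Spearman correlation of 0.979 across genes, and the least distant pair still had a chi-square of 8.44 per gene. Reads carry no molecular identifiers.

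Alternatives were DESeq2 1.42.0, RLE and upper quartile scaling, no fold limit, no filter, a stricter filter (10 counts or more in each tumor), the 2 groups compared alone, code run as a term, the later run alone, a replicate block, leaving out each tumor and, added after seeing the data, the earlier run alone and correlations without KW6002 replicate 1. Named genes are the 10 members, up to 4 genes per pathway list called in either cisplatin arm against vehicle with a mean of at least 50 counts (smallest adjusted P first), the 8 genes with the most similar deviations, Psmb5, Psmb6, Psmb7, Irf1, Ifng, Ptprc and Cd8a, and markers beside a result. Some genes that the rule names are not reported here. Vehicle replicate 1 is titled in another form than the other vehicle tumors and was grouped with them by its agent label. Annotation came from GENCODE M21 and promoters from RefSeq (GRCm38.p6).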

Additional observations from a re-analysis of the deposited data

Results flagged for a closer look

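Of the 40 sets of 5 tumors (10 genes in 4 groups), 3 held a tumor far from the rest by Dixon's ratio, whose critical value for 5 tumors is 0.71. Chance gives about 1 in 20 such sets. B2m in vehicle replicate 2 was at 1012 CPM, above the other vehicle tumors at 664 to 748 CPM. Tap1 in KW6002 replicate 1 was at 33.1 CPM, where the other KW6002 tumors had 18.7 to 22.5 CPM. Psmb8 in the same tumor was at 30.5 CPM, where the others had 18.7 to 21.8 CPM. This is the tumor with 377 counts of Ms4a1. Its part in these values was not tested.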

How the results depend on the processing

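The 4 members called after cotreatment against vehicle, and the 4 against KW6002, were called under every alternative run for each comparison except the later code run alone, which called 3 in each and left out Psmb9 (-0.74 and -0.86, adjusted P = 0.131 and 0.115, edgeR). Tapbp was called after cisplatin under every alternative run. The earlier run alone, with 1 vehicle tumor, was not fitted against vehicle. The members called between cotreated and cisplatin tumors, 1 in the fit to all tumors, were 2 with DESeq2, 2 without the fold limit, and 0 with only the groups compared, the later code run alone or the earlier run alone (added after seeing the data), and 1 to 3 when tumors were left out in turn. The cause was not tested. Tap1 was called against KW6002 in the earlier run alone (-0.51, adjusted P = 0.0349, edgeR), where KW6002 replicate 1 is 1 of 2 KW6002 tumors. Calls over all genes between cotreated and cisplatin tumors went from 667 to 217 with only the groups compared, 1 in the later run, 322 in the earlier run, 1086 without the fold limit and 289 to 1013 when tumors were left out. Calls over all genes for cisplatin went from 1762 to 2752 without the fold limit and 2743 in the later run. For cotreatment they went from 3914 to 5906 and 2209, and against KW6002 from 3884 to 5837 and 1654. The interaction called 11 genes, 258 with DESeq2, 21 without a filter, 39 with at least 10 counts in every tumor, 17 with code run as a term, 0 in the later run and 0 to 229 when tumors were left out.

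The tumors were taken to share only a replicate number, since in no comparison did the deviations of every same-numbered pair have an r over 0.1 (-0.392 to 0.226 over all pairs). Between cotreatment and cisplatin 4 of 5 pairs did, at 0.157 to 0.226. With the replicate block the members called stayed at 0, 1, 4, 1, 4 and 0 over the 6 comparisons, while calls over all genes between cotreated and cisplatin tumors went from 667 to 584 and for the interaction from 11 to 0.

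Log2 fold changes of members that were not called changed sign. In the later run alone these were 0.19 for H2-K1 and 0.022 for B2m after cisplatin, and -0.085 after cotreatment and -0.16 against cisplatin for Nlrc5. With code run as a term they were 0.00058 for H2-D1 after cotreatment and -0.055 for Nlrc5 between cotreatment and cisplatin. Tap2 after cotreatment became 0.0045 with DESeq2, 0.0048 with RLE scaling, 0.0080 without a filter, 0.012 with at least 10 counts in every tumor, and 0.0039 with only the groups compared. In the earlier run, cotreated against cisplatin tumors gave 0.19 for H2-K1, 0.12 for H2-D1, 0.056 for Tap1, 0.13 for Tap2, 0.080 for Psmb9 and -0.0069 for Nlrc5.

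When tumors were left out in turn, values after cisplatin ran from -0.16 to 0.083 for H2-K1, -0.043 to 0.11 for H2-D1, -0.13 to 0.049 for B2m, -0.0027 to 0.18 for Tap1, 0.016 to 0.19 for Tap2 (lowest without vehicle replicate 4), -0.63 to -0.29 for Psmb9 and 0.15 to 0.41 for Nlrc5. After cotreatment they ran from -0.085 to 0.062 for H2-D1 and -0.11 to 0.070 for Tap2. They also ran from -0.31 to -0.089 for H2-K1, -0.27 to -0.093 for Tap1 and 0.17 to 0.43 for Nlrc5, the outer values coming without vehicle replicate 2 or 4. Against cisplatin they ran from -0.65 to -0.30 for Psmb9, without cisplatin replicate 2 and 5, from -0.095 to 0.021 for H2-D1 and -0.064 to 0.12 for Nlrc5, and against KW6002 from -0.10 to 0.083 for Nlrc5. The ratio of Psmb8 to Psmb5 ran from -0.41 to -0.23 and that of Psmb10 to Psmb7 from -0.55 to -0.35 between cotreated and cisplatin tumors, each called without cisplatin replicate 2, and that of Psmb9 to Psmb6 from -0.36 to -0.041, without cisplatin replicate 2 and 5. The ratio of Psmb9 to Psmb6 ran from -0.97 to -0.67 after cotreatment, called without vehicle replicate 4, and from -0.013 to 0.28 after KW6002, and that of Psmb10 to Psmb7 from -0.035 to 0.074 after KW6002. Psmb9 had the fewest counts of the members, 99 to 455 per tumor.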
